A study of Macaca fascicularis with 3 samples.

Results

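The miRNAs encoded within the HOX gene clusters were described in the kidney cortex of 3 naïve cynomolgus monkeys (Macaca fascicularis), the animals being between 2 and 3 years of age. They were the rows of the raw count table whose names had the stem miR-10a, miR-10b, miR-196a, miR-196b or miR-615, on either arm of the hairpin. There were 8 such names among the 432 listed mature miRNAs: mfa-miR-10a-5p, mfa-miR-10a-3p, mfa-miR-10b-5p, mfa-miR-10b-3p, mfa-miR-196a-5p, mfa-miR-196b-5p, mfa-miR-196b-3p and mfa-miR-615-3p. The species prefix is dropped from here on, and the table pairs each of the 8 with the human miRNA of the same name. Names for miR-196a-3p and miR-615-5p were not among those listed. Each animal gave 1 small RNA library, no treatment is named in the labels, and the 3 libraries form a single group, so the comparisons below are between miRNAs and between animals. Age is the only property of the animals that the labels state besides species and tissue, and the cortex pieces were whole tissue holding tubules, glomeruli, vessels and blood.

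HOX genes are transcription factors that set position along the body axis, and they lie in clusters that are partly transcribed together with the miRNAs between them. miR-10a is encoded next to HOXB4 and miR-10b next to HOXD4, miR-196a comes from a pair of genes in the HOXB and HOXC clusters, miR-196b lies in the HOXA cluster and miR-615 within HOXC5. The RefSeq gene table of assembly T2T-MFA8v1.1 lists 39 HOX genes in 4 clusters for this species. miR-10 and miR-196 are known to repress HOX mRNAs, among them HOXD10 for miR-10b and HOXB8 for miR-196. A miRNA hairpin yields a mature miRNA from its 5p arm and another from its 3p arm, and commonly one of them is kept while the other is degraded. In miR-10 and miR-196 the kept strand, or guide, is the 5p arm, and in miR-615 the 3p arm is the better known.

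Listed miRNAs received 4305977 counts in animal 1, 4707892 in animal 2 and 3957188 in animal 3, so that a floor of 3 counts stood at 0.697, 0.637 and 0.758 CPM (counts per 1000000 listed counts). The renal list (miR-204, miR-194, miR-192 and miR-215) took between 5.31 and 6.20% of the counts and all 4 of its stems were present in every library. The endothelial miR-126 took between 3.99 and 4.98%, the smooth muscle list (miR-143 and miR-145) between 2.82 and 4.44%, the epithelial list between 1.63 and 2.09%, the erythroid list between 0.437 and 0.577% and the leucocyte list between 0.152 and 0.173%. The library of animal 3 stood apart. Of the 391 names whose counts averaged 10 or more, 26 (6.65%) lay at -2 or below in animal 3 on the log2 scale, measured against the mean of the other animals. There were 2 such miRNAs (0.512%) in animal 1 and 2 in animal 2. Levels are given for each animal, and spans and arm ratios also without animal 3.

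The HOX cluster miRNAs made up a large share of the miRNA reads of the cortex, nearly all of it the 5p strands of miR-10. Together the 8 names took 12.61% of the listed counts in animal 1, with a Wilson 95% interval of 12.58 to 12.64. The share was 12.02% in animal 2, with bounds of 11.99 and 12.05, and 14.05% in animal 3, with bounds of 14.02 and 14.09, giving a mean of 12.9% ± 1.05 (SD, n = 3). The share was highest in animal 3, and the intervals of the 3 animals did not overlap. miR-10b-5p with miR-10a-5p made 12.7% ± 1.03, the 3 miR-196 names 0.140% ± 0.0194 and miR-615-3p 0.00824% ± 0.00122 (SD, n = 3). The intervals cover counting error only, since no molecular identifiers are described. In this whole tissue a lower level from fewer cells of a type and one from less RNA per cell cannot be told apart. CPM counts reads of a mature miRNA and is not a number of molecules.

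**Figure D1:**
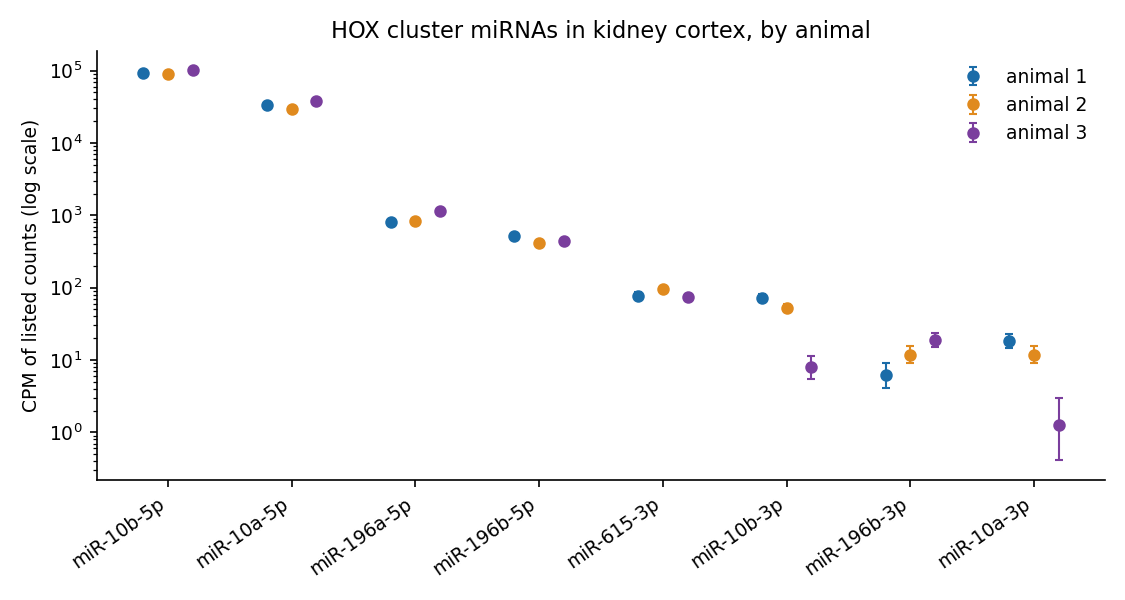
Level of each HOX cluster miRNA in each animal, as CPM of the listed counts on a log axis. Points are single libraries (1 per animal) and bars are exact Poisson 95% intervals for counting error. The 5p strands of miR-10 stand far above the rest, and miR-10a-3p and miR-10b-3p have their lowest points in animal 3, at 1.26 and 8.09 CPM.

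Among the guide strands, miR-10b-5p was the most abundant of all 432 names in each of the 3 libraries. It had 394199, 419154 and 398890 counts in animals 1, 2 and 3, or 91547, 89032 and 100801 CPM. The animals lay close together, with a coefficient of variation (CV) of 6.61% and a mean of 93794 CPM ± 6198 (SD, n = 3). The next miRNA in the order, miR-30a-5p, was below it in every animal.

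miR-10a-5p, the paralogue from the HOXB cluster, held 142242, 140090 and 150550 counts, or 33034, 29756 and 38045 CPM. It ranked 10, 11 and 8 in animals 1, 2 and 3, and its CV was 12.4%. Its neighbours in the order were not separated from it, since let-7a-5p was higher in 2 of 3 animals and miR-30d-5p in 1 of 3.

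The guide strands of miR-196 were far less abundant than those of miR-10. miR-196a-5p had 3425, 3914 and 4598 counts, or 795, 831 and 1162 CPM, with animal 3 above the other animals. miR-196b-5p had 2208, 1961 and 1739 counts, or 513, 417 and 440 CPM, with animal 1 highest. Their places in the order of mean CPM were 84 and 108. miR-10b-5p exceeded miR-196a-5p by 115-fold, 107-fold and 86.8-fold in animals 1, 2 and 3.

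miR-615-3p had 335, 453 and 290 counts, or 77.8, 96.2 and 73.3 CPM, and ranked 187. Its animals lay close together, with a CV of 14.7% and a span (highest over lowest level after TMM scaling) of 1.19-fold, smaller than the median of 1.71-fold over the 391 miRNAs. In all 3 libraries it lay above each of the 3p strands of miR-10 and miR-196. Against the nearest of them, miR-10b-3p, this was by 335 to 310 counts in animal 1, where the exact 95% interval of the ratio, 0.923 to 1.27, includes 1.

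The 3p strands of the other hairpins were rare. miR-10b-3p had 310, 245 and 32 counts, or 72.0, 52.0 and 8.09 CPM. miR-10a-3p had 80, 56 and 5 counts, or 18.6, 11.9 and 1.26 CPM, and its exact Poisson 95% interval in animal 3 ran from 0.410 to 2.95 CPM. Both 3p strands of miR-10 were thus high in animals 1 and 2 and low in animal 3, where 5 counts are only just above the floor.

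miR-196b-3p had the opposite order, with 27, 56 and 75 counts, or 6.27, 11.9 and 18.9 CPM. It was lowest in animal 1 and highest in animal 3. Counting intervals of animal 1 (4.13 to 9.12 CPM) and animal 3 (14.9 to 23.8 CPM) did not overlap, and that of animal 2 (8.98 to 15.4 CPM) overlapped both.

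Ordered by mean CPM, the 8 miRNAs formed 7 neighbouring pairs, of which 5 kept their order in all 3 animals. These were miR-10b-5p over miR-10a-5p, miR-10a-5p over miR-196a-5p, miR-196a-5p over miR-196b-5p, miR-196b-5p over miR-615-3p, and miR-615-3p over miR-10b-3p. In each of the 5 an exact permutation test that flips the signs of the log2 ratios within libraries (two-sided) gave p = 0.25, the smallest that 3 animals allow. The order was set by these same libraries, so this p only restates that all 3 animals agreed. miR-10b-3p exceeded miR-196b-3p in 2 of 3 animals (exact permutation p = 0.50). miR-196b-3p exceeded miR-10a-3p in 1 of 3 animals and equalled it in animal 2 with 56 counts each (exact permutation p = 1.0). Among the 3 rare 3p strands, the place of miR-196b-3p thus changed between animals. Against miR-10b-3p the change exceeded counting error, with miR-10b-3p at 11.5 times the counts of miR-196b-3p in animal 1 (exact 95% interval 7.74 to 17.7) and 0.427 times in animal 3 (0.273 to 0.654).

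Ratios of paralogues within a library need no scaling between libraries. miR-10b-5p exceeded miR-10a-5p by 2.77-fold, 2.99-fold and 2.65-fold in animals 1, 2 and 3, a mean log2 ratio of 1.49 ± 0.09 (SD, n = 3; higher in 3 of 3 animals, exact permutation p = 0.25). Of the reads of the pair, miR-10b-5p took 73.5, 75.0 and 72.6%. This was the steadiest of the ratios among the paralogues, and the animals still differed beyond counting error, with exact 95% intervals of 2.75 to 2.79, 2.97 to 3.01 and 2.63 to 2.67.

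The 3p strands kept the same order. miR-10b-3p exceeded miR-10a-3p by 3.88-fold, 4.38-fold and 6.40-fold, and these values were not separated by their counting intervals, which were 3.02 to 5.02, 3.26 to 5.96 and 2.48 to 21.0. Thus, although both 3p strands were low in animal 3, no difference between animals in their ratio was detectable at this depth.

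miR-196a-5p exceeded miR-196b-5p by 1.55-fold, 2.00-fold and 2.64-fold, a mean log2 ratio of 1.01 ± 0.39 (SD, n = 3). The intervals, 1.47 to 1.64, 1.89 to 2.11 and 2.5 to 2.8, did not overlap. The miR-196 pair thus varied more between animals than the miR-10 guide pair, with an SD of 0.39 against 0.09 on the log2 scale, a difference between the SDs that was not tested. How reads that match several of these near-identical names were divided is not stated, so the levels of single paralogues are uncertain.

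**Figure D2:**
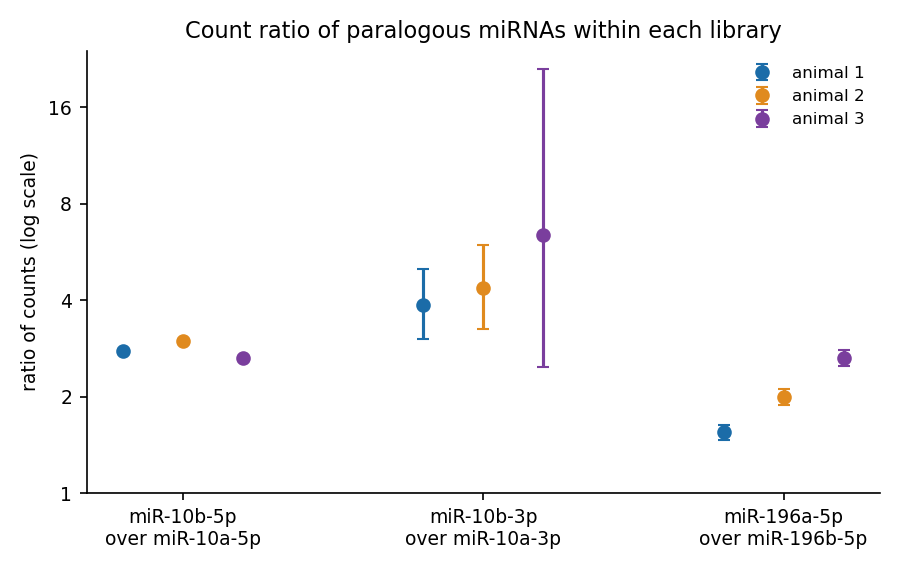
Ratio of counts of paralogous miRNAs within each library, on a log axis. Points are single libraries and bars are exact binomial 95% intervals for counting error. miR-10b-5p over miR-10a-5p stays between 2.65 and 2.99, the 3p pair has wide and overlapping intervals, and miR-196a-5p over miR-196b-5p lies between 1.55 and 2.64 with intervals that do not overlap.

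Differences between the libraries were then measured for each miRNA over the whole table. A chi-square test of homogeneity against TMM effective library sizes (TMM, the trimmed mean of M values, scales libraries to each other), with Benjamini-Hochberg adjustment, called 8 of the 8 HOX cluster miRNAs. It called 80.6% of the 391 tested, so at this depth a call is common and is no feature of these miRNAs. The least clear was miR-615-3p with an adjusted p of 0.0322, which was 0.120 with DESeq2 size factors, 0.0502 without animal 1 and 0.467 without animal 2. miR-196a-5p was not called without animal 3 (adjusted p = 0.888), nor miR-196b-5p without animal 2 (adjusted p = 0.3945).

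By size, 3 of the 8 differed by more than 2-fold between their highest and lowest library, against 39.9% of all tested, and 2 spanned more than 4-fold, against 12.5%. These were miR-10a-3p with 13.7-fold, miR-10b-3p with 8.28-fold and miR-196b-3p with 3.25-fold. The median span was 1.5-fold for the 8 and 1.71-fold for all tested. Without animal 3, 0 of the 8 passed 2-fold, with 1.62-fold for miR-10a-3p, 1.44-fold for miR-10b-3p and 1.82-fold for miR-196b-3p. Without animal 1, miR-196b-3p spanned 1.78-fold. The 4 guide strands of miR-10 and miR-196 spanned 1.27-fold to 1.57-fold. The highest of these, for miR-196a-5p, was 1.004-fold without animal 3, and the other guide strands then spanned 1.07-fold to 1.28-fold.

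In animal 3 the guide and the 3p strand of the miR-10 hairpins lay on opposite sides of the other animals. On the log2 scale of TMM-scaled CPM + 1, miR-10a-5p lay 0.41 above the mean of animals 1 and 2 and miR-10a-3p lay at -2.72. miR-10b-5p lay 0.29 above and miR-10b-3p at -2.65. The 3p strands took places 12 and 14 from the lowest of 391, while the guide strands took places 286 and 260. Under each of 5 scalings (library totals, TMM, DESeq2 size factors, the authors' signal and totals without let-7), both guide strands were highest and both 3p strands lowest in animal 3. These scalings rest on the same counts and are not independent, and the authors' signal in effect applied the TMM factors without library totals. The 3p strands spanned at least 8.12-fold under each, so scaling factors this alike could not have changed their lowest library. With TMM scaling the 3p strands of miR-10a and miR-10b were the only ones of the 8 with their lowest value in animal 3, against 41.9% of all tested. Arms on opposite sides in animal 3 were found in other hairpins too. There miR-361-5p lay at -3.08 and miR-361-3p at 0.36, and miR-221-3p at -2.23 and miR-221-5p at 0.28. How many hairpins split in this way was not counted.

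The other HOX cluster hairpins differed from those of miR-10. miR-196b-5p lay at 0.06 in animal 3 and miR-196b-3p at 1.17, place 378 from the lowest. miR-196a-5p lay at 0.65, place 332 from the lowest, and miR-615-3p at -0.11, place 181. miR-196a-5p and miR-196b-3p were highest in animal 3 under each of the 5 scalings. The direction of miR-615-3p depended on scaling, since animal 3 was its lowest library under 3 of the 5 and animal 1 under the TMM and DESeq2 scalings.

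Values of the marker lists and of let-7 are given here beside these results, and their part in the results was not tested. The smooth muscle list was highest in animal 3 at 4.44% against 2.82 and 3.18%. Its stems differed, since miR-145 had 20144, 26805 and 38253 CPM in animals 1, 2 and 3, while miR-143 was highest in animal 1 with 8071, 4980 and 6159 CPM. The epithelial list was lowest in animal 3 at 1.63% against 2.09 and 2.07%, with no name of miR-200b or miR-141 counted. Nearly all of it came from miR-200a (11980, 10153 and 8650 CPM) and miR-429 (8919, 10492 and 7627 CPM). These stems were highest in animals 1 and 2, respectively, and miR-200c had only 4.88, 7.01 and 3.79 CPM. The let-7 family, which is in no marker list, took 13.7, 10.4 and 7.72% in animals 1, 2 and 3. In the same order of animals, miR-126 took 4.98, 3.99 and 4.08% and the renal list 5.71, 6.20 and 5.31%. The erythroid list took 0.503, 0.437 and 0.577% and the leucocyte list 0.162, 0.173 and 0.152%. Stems within these lists differed too. Erythroid miR-144 was highest in animal 1 (633, 424 and 326 CPM). miR-451 (4369, 3900 and 5386 CPM) and miR-486 (23.5, 49.5 and 53.3 CPM) were highest in animal 3. Leucocyte miR-142 and miR-223 were highest in animal 2 and miR-150 in animal 3. Renal miR-204 was highest in animal 2, miR-192 and miR-215 in animal 1 and miR-194 in animal 3.

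Low levels in animal 3 were found on minor and on dominant arms. Of the 104 minor arms tested, 8 (7.69%) lay at -2 or below in animal 3, against 9 of 121 dominant arms (7.44%). The constant added to CPM before taking logs shrinks the deviations of rare miRNAs. For the rarest of those tested, even no reads in animal 3 would leave the deviation near -2 or short of it. Minor arms are the rarer arms of their hairpins, so these shares cannot show whether low values fell more often on either arm. Among 131 miRNAs whose mean count ran from 30 to under 300, the range that holds miR-10a-3p and miR-10b-3p, 7 (5.34%) lay that low and 10.7% spanned more than 4-fold. Both the 8 minor arms and the 7 miRNAs include miR-10a-3p and miR-10b-3p. These groupings were chosen after the values were seen, and whether arm or depth bears on the low values was not tested.

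**Figure D3:**
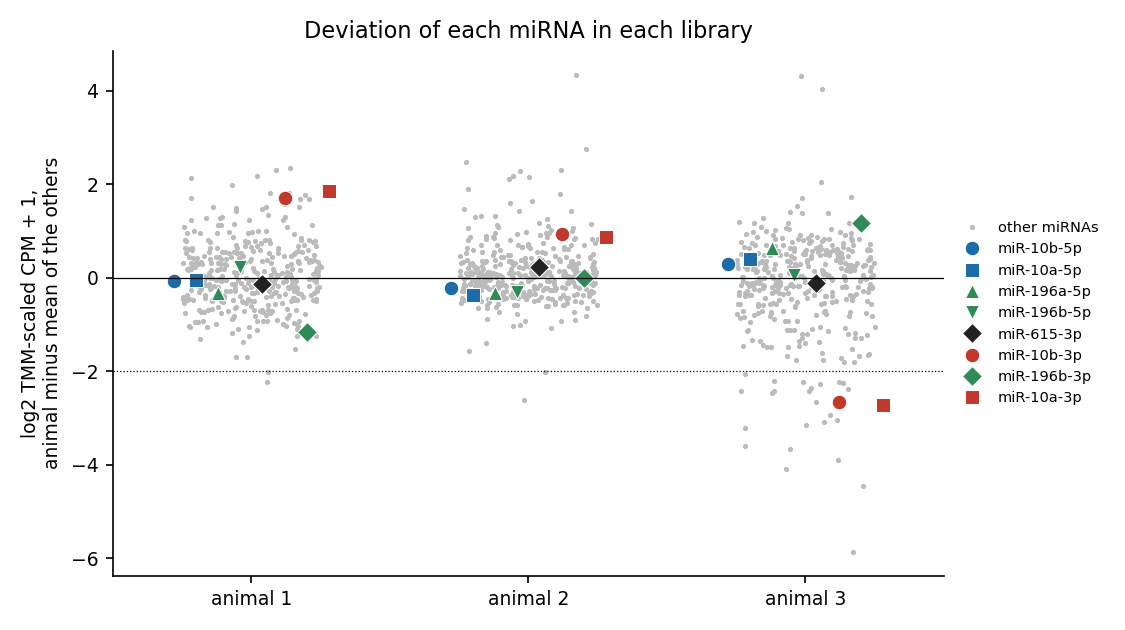
Deviation of each of 391 miRNAs in each library, as the log2 of TMM-scaled CPM + 1 minus the mean of the other animals. Grey points are other miRNAs, spread sideways at random, coloured symbols are the 8 HOX cluster miRNAs, and the dotted line marks -2. In animal 3 miR-10a-3p (-2.72) and miR-10b-3p (-2.65) lie below the line while their guide strands lie at 0.41 and 0.29.

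The arms of a hairpin were compared within libraries, over 122 hairpins that had a name for each arm and at least 10 counts per library on average, where scaling again plays no part. miR-10a and miR-10b were among the most one-sided of them. miR-10a-5p exceeded miR-10a-3p by 1778-fold, 2502-fold and 30110-fold in animals 1, 2 and 3. miR-10b-5p exceeded miR-10b-3p by 1272-fold, 1711-fold and 12465-fold. Animals 1 and 2 lay close together in both hairpins and animal 3 lay far above them.

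As a share of the hairpin's reads, the 3p strand of miR-10a made 0.0562, 0.0400 and 0.00332% in animals 1, 2 and 3, with a Wilson 95% interval of 0.00142 to 0.00778% in animal 3. That of miR-10b made 0.0786, 0.0584 and 0.00802%, with an interval of 0.00568 to 0.0113% in animal 3. In both hairpins the interval of animal 3 lay below those of the other animals.

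With 0.5 added to each count, the mean log2 ratio of 5p to 3p was 12.27 ± 2.15 (SD, n = 3) for miR-10a and 11.54 ± 1.78 for miR-10b. They took places 2 and 4 of 122 from the 5p end, and 4 and 6 when the direction was set aside. Without animal 3 the mean log2 ratios were 11.03 and 10.52, at places 3 and 7 from the 5p end and 7 and 12 with the direction set aside. With all 3 animals, miR-30d stood above miR-10a in the order from the 5p end, miR-424 between them and miR-191 below miR-10b. The median size of the log2 ratio over the 122 hairpins was 4.33.

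miR-196b was less one-sided. Its 5p strand exceeded its 3p strand by 81.8-fold, 35.02-fold and 23.2-fold, with animal 1 highest and animal 3 lowest, the reverse of miR-10. Its 3p share was 1.21, 2.78 and 4.14% of the hairpin's reads. The mean log2 ratio was 5.32 ± 0.92 (SD, n = 3), place 31 of 122, between miR-379 and let-7b, and 5.72 without animal 3.

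A chi-square test of the arm counts over the 3 libraries, with Benjamini-Hochberg adjustment over the 122 hairpins, called all 3 of these hairpins, with an adjusted p of 1.59e-14 for miR-10a, 5.04e-47 for miR-10b and 1.06e-07 for miR-196b. It called 67.2% of all hairpins. The arm ratio spanned 15.5-fold between animals for miR-10a, 9.67-fold for miR-10b and 3.49-fold for miR-196b, places 7, 13 and 40 of 122. The median was 2.30-fold, 54.9% of hairpins spanned more than 2-fold and 27.9% more than 4-fold. The 5p to 3p ratio was highest in animal 3 in 38.5% of hairpins.

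Animal 3 set the size of these spans for miR-10. Without it the arm ratio spanned 1.40-fold for miR-10a, no longer called (adjusted p = 0.115), and 1.35-fold for miR-10b, still called. For miR-196b the span was 2.31-fold without animal 3 and 1.51-fold without animal 1. The test weighs differences between animals by counting error alone and does not compare conditions.

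**Figure D4:**
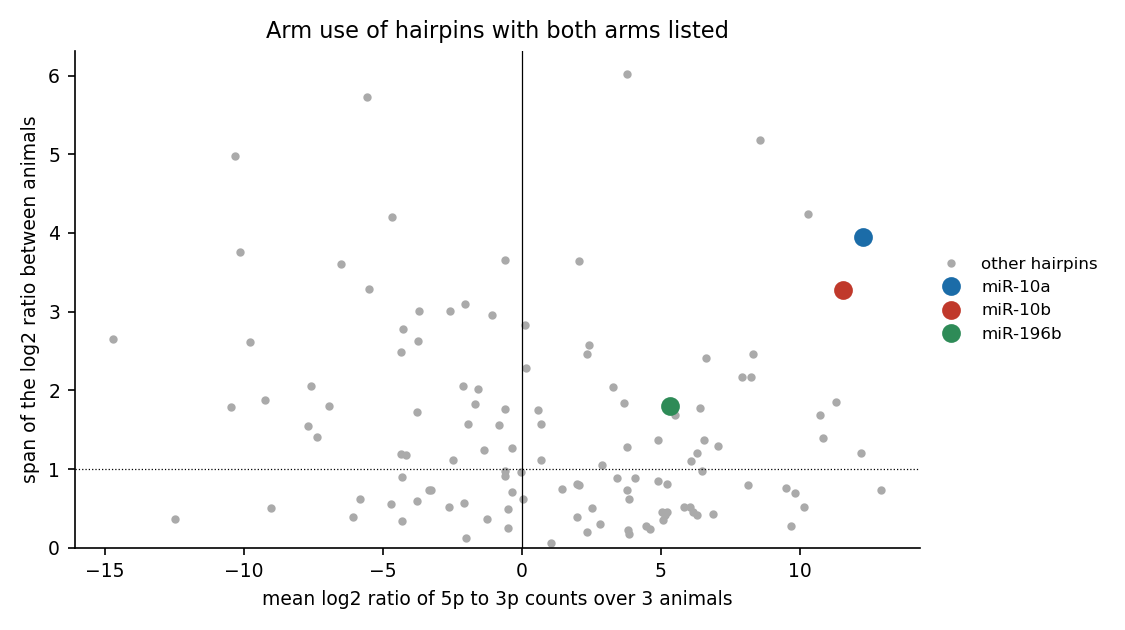
Arm use of 122 hairpins with both arms listed. The horizontal axis is the mean log2 ratio of 5p to 3p counts over 3 animals and the vertical axis is the span of that ratio between animals (log2), with the dotted line at 2-fold. miR-10a (12.27) and miR-10b (11.54) lie near the right edge with spans of 3.95 and 3.27, and miR-196b lies at 5.32 with a span of 1.80.

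miR-99a, miR-99b, miR-100, miR-125a and miR-125b are relatives of miR-10 in sequence but lie outside the HOX clusters. They had 8 listed names, 5 guide strands and 3 of the 3p arm. The 5 guide strands were highest in animal 3 under each of the 5 scalings, as miR-10a-5p and miR-10b-5p were. The share of all miRNAs that were highest in animal 3 was not counted, so this cannot be read as a feature of these families. miR-125b-5p, the most abundant, had 21393, 23022 and 38183 CPM in animals 1, 2 and 3, and miR-99b-5p, the least abundant guide, 1897, 2830 and 4337 CPM. The test of homogeneity called 7 of the 8 names, and 2 spanned more than 2-fold, miR-99a-5p with 2.05-fold and miR-99b-5p with 2.46-fold. Without animal 3, or without animal 1, 0 did.

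The 3p strands of the relatives were not low in animal 3 to the extent of miR-10. miR-125a-3p lay at -0.39, miR-125b-1-3p at -0.13 and miR-125b-2-3p at 0.48 on the log2 scale against the mean of the other animals. Their mean counts were 55.3, 25.3 and 107, against 47.00 for miR-10a-3p and 195.7 for miR-10b-3p. The difference between the families was not tested.

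Likeness over the 3 libraries was measured as the Euclidean distance between profiles of log2(TMM-scaled CPM + 1), each centred on its mean, among miRNAs with a mean CPM of at least 100. With 3 libraries many profiles are alike, and the distances are a description. Nearest to miR-10b-5p were miR-30e-5p (0.0457), miR-25 (0.0612) and miR-101-3p (0.0636). Nearest to miR-10a-5p were miR-22 (0.0172), miR-151-5p (0.0210) and miR-30c-5p (0.0403).

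For the miR-196 guides, miR-196a-5p was nearest to miR-30a-5p (0.0345), miR-224-5p (0.0442) and miR-20b-5p (0.0825). miR-196b-5p was nearest to miR-148b-3p (0.0369), miR-126 (0.0486) and miR-148a-3p (0.0652). miR-615-3p was nearest to miR-505-3p (0.0325), let-7a-3p (0.0771) and miR-199a-3p (0.0827).

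The 3p strands of miR-10, themselves below that limit of 100 CPM, lay at a distance of 0.112 from each other. The guide strands miR-10b-5p and miR-10a-5p lay 0.125 apart. The added 1 weighs heavily on miR-10a-3p in animal 3, at 1.34 TMM-scaled CPM, and brings the 3p profiles closer. Without it their spans differed, with 13.7-fold for miR-10a-3p and 8.28-fold for miR-10b-3p. Among the miRNAs above the limit they shared the same 3 nearest, miR-361-5p, miR-221-3p and miR-381-3p, at distances from 0.352 to 0.527. miR-361-5p, the nearest of these to both, had 3687, 3237 and 325 counts in animals 1, 2 and 3. miR-196b-3p was nearest to miR-6529-5p (0.0998), which had 279, 580 and 682 counts, then to miR-99b-5p (0.209) and miR-423-3p (0.240).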

How the data were processed

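Small RNA was sequenced from 25 to 30 mg of frozen kidney cortex per animal, with 5 µg of total RNA enriched for small RNA and 12 ng taken into each library, per the labels' protocols. The deposited table holds raw read counts per mature miRNA, which the authors mapped to M. fascicularis miRNAs with 0 mismatches and kept from 15 reads, per the file headers. The smallest sum over the 3 libraries is 15, and 97 names have fewer than 15 counts in at least 1 library, so the minimum holds for the sum and not for each library. The second deposited table holds a signal that the authors normalized with edgeR, per the file headers, and it was used only as an alternative. It equalled the raw count times 1 factor per library in 100.0% of values, within rounding. That factor lay close to the inverse of the TMM factor given below, so the signal was not divided by library totals. The aligner, the miRNA release and the treatment of reads that match several names are not given in the sources used here.

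From the counts, CPM over the listed total of each library, TMM factors (1.011, 1.052 and 0.940 for animals 1, 2 and 3; edgeR 4.0.16, R 4.3.3) and DESeq2 1.42.0 size factors were computed. Relative to totals, TMM moved the median log2 deviation of animal 3 from the others from -0.14 to -0.01. Tests and spans used miRNAs, or hairpins by the sum of their arms, with a mean count of at least 10 and an adjusted p threshold of 0.05, over the whole table. The test functions were run on simulated counts that held counting error and set shifts but no other variation between animals. Those runs do not show how the tests behave on these libraries. Intervals are Wilson for shares, exact binomial for ratios and exact Poisson for CPM, at 95%. Libraries are separate samples, but the labels do not say more of the animals. Between 1.16 and 2.31% of names had equal counts in a pair of libraries.

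Named miRNAs are the members, their listed relatives, the 3 most alike profiles, and neighbours in the order of level or arm ratio. The marker lists and both arms of miR-361 and miR-221 are named as well. The members, lists and tests were chosen with earlier results of these data known. Alternatives covered scaling, filters, added counts, totals without let-7 and each animal left out. Mature sequences and genomic positions were not used here.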

Additional observations from a re-analysis of the deposited data

How the results depend on the processing

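Leaving the let-7 family out of the totals raised the mean of miR-10b-5p from 93794 to 104908 CPM, that of miR-196b-5p from 456 to 512 CPM and the share of the 8 miRNAs from 12.9 to 14.4%, each by more than the SD between animals, which follows from the smaller total. A mean count of at least 100 left 82 of the 156 miRNAs spanning more than 2-fold and 1 of the 3 HOX cluster miRNAs, miR-10b-3p, since the others have fewer counts. When 1 animal was left out, the miRNAs spanning more than 2-fold ranged from 35 to 124 (35 without animal 3, 92 without animal 1), the HOX cluster miRNAs among them from 0 to 3 (0 without animal 3) and the relatives of miR-10 from 0 to 3, the main number being 2. Hairpins with different arm use ranged from 41 to 72, the main number being 82, with 41 without animal 3. With fewer animals a span shrinks, except where the recomputed scaling factors widen it. The mean log2 ratio of miR-10b-5p to miR-10a-5p ranged from 1.44 to 1.53. Of 118 recalculated values of the comparison results, 107 stayed within the SD between animals or within 1.5 times, and many could not have moved further. The counts of miR-10a-3p in animal 3 limit its level and ratios to the intervals given. No paired analysis was possible because all libraries belong to 1 group.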
